A study of Mus musculus with 6 samples.

Results

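The WNT genes described here are the ligands, receptors, antagonists, signal transducers and readout genes whose symbols match a fixed name pattern in the deposited gene table, which found 75 of 23420 genes. All 75 are in the table, and 63 of them averaged 10 counts or more over the 2 genotypes, as did 15696 of all genes; these are called counted genes below. Uteri came from 8-week-old C57BL/6J mice taken on pseudopregnancy day 4.5, after mating with vasectomized males, and their poly(A) RNA was sequenced. The control mice were *Foxo1f/f* and carried no Cre allele, and the *Foxo1d/d* mice were PgrCre/+ *Foxo1f/f*, with Cre recombinase expressed from the progesterone receptor locus. The Cre allele and the loss of *Foxo1* therefore go together and cannot be told apart. Each genotype had 3 libraries, and each library held RNA pooled from 2 mice.

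The table gives 1 mean count per gene and genotype, the authors' mean over 3 libraries. Counts of single libraries were not analysed here, so no value below has an SD or a test, and no difference between genotypes was set here against the spread between pools. The p-values that the authors deposited from their own comparison were not used. A ratio is the mean count of *Foxo1d/d* over that of *Foxo1f/f*, each with a pseudocount of 1 and divided by its genotype's total, on the log2 scale, while a fold is the same ratio without the pseudocount. The 95% Wilson interval beside a fold was computed on counts summed over the 3 libraries and covers counting error only. A member is called higher or lower where it is a counted gene and its ratio passed 1.5-fold. A level is given as CPM (a gene's share of its genotype's total count, times 1000000) per kb of merged exon, so that genes of unequal length can be compared.

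WNT ligands are secreted lipid-modified proteins that bind Frizzled receptors together with LRP5 or LRP6, which stabilises β-catenin and lets it act with TCF/LEF factors in the nucleus, or that signal without β-catenin through ROR and RYK receptors, cell polarity proteins and calcium. Secreted antagonists such as SFRP and DKK proteins limit the signal, and R-spondins with LGR receptors raise it by removing the ligases that clear Frizzled from the membrane. In the mouse uterus WNT genes are known for their part in the formation of glands, the reaction of the lumen to the embryo and decidualization. WNT7A and WNT7B are made in the uterine epithelium, while WNT5A is made mainly in the stroma.

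A control library held a mean of 26125014 counts and a *Foxo1d/d* library 27257963. *Foxo1* itself averaged 3941 counts in control uteri and 1456 in *Foxo1d/d* uteri, which is 2.82-fold lower. Because whole uterus was used, fewer cells of a type and less RNA per cell cannot be told apart in any value below. None of the markers found for the 10 cell type lists was at a mean of 0 in either genotype. The 12 markers of epithelium summed to 881 CPM in controls and 1063 CPM in *Foxo1d/d*, the 12 of stroma to 15420 and 15340, the 10 of smooth muscle to 7736 and 6336, and the 10 of endothelium to 2097 and 1782. The 8 gland markers found of 10 summed to 862 and 449, with 3 higher, 3 lower and *Foxa2*, a transcription factor of gland cells, at mean counts of 279.7 and 299.7. Sums over the lists of leukocytes (396 and 499), adipocytes (74.1 and 114), stratified epithelium (17.5 and 37.3), mesothelium (239 and 262) and peripheral glia (41.5 and 42.8) were smaller, and 7 of the 9 adipocyte markers and 4 of the 7 stratified epithelium markers that are counted genes were higher. The part of such shifts in the WNT values was not tested.

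**Figure D1:**
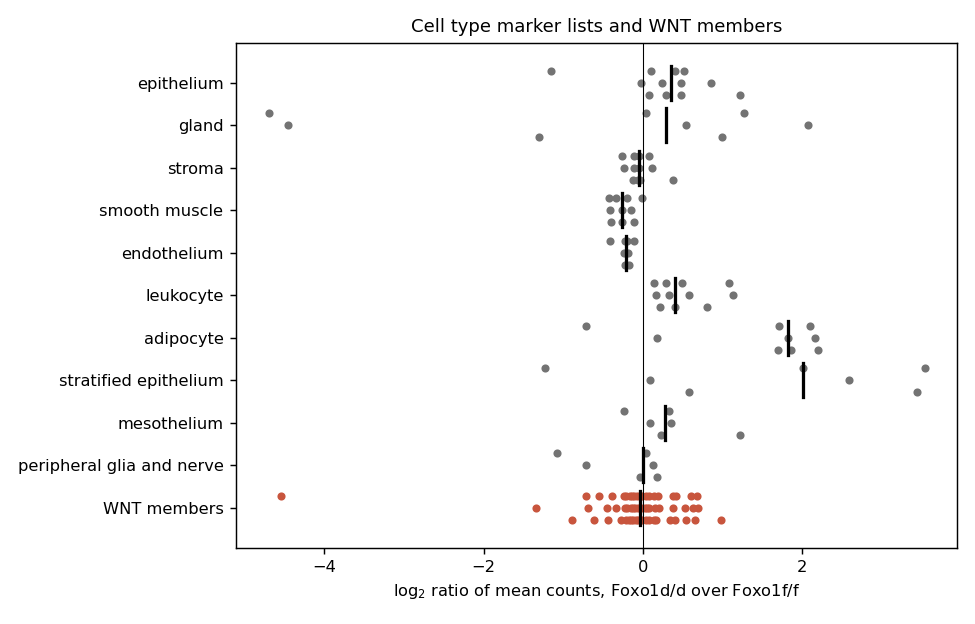
Log2 ratio of the mean counts, *Foxo1d/d* over *Foxo1f/f*, of each counted gene in 10 cell type marker lists (grey points) and of the 63 WNT members (red points), with the median of each list as a black bar. The smooth muscle and endothelium markers all lie below 0, the adipocyte and stratified epithelium medians lie near 2, and the WNT members centre on -0.04.

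Of the 63 counted WNT members, 6 were higher and 6 were lower in *Foxo1d/d*. This is 9.52% in each direction, where 5.43% of all 15696 genes were higher and 3.51% were lower by the same rule. The higher members were the ligands *Wnt5a*, *Wnt7a* and *Wnt11*, the receptor *Lgr6*, the antagonist *Notum* and the readout gene *Wisp2*. The lower members were the ligands *Wnt7b*, *Wnt2* and *Wnt10b*, the receptor *Lgr5* and the antagonists *Sfrp4* and *Sfrp5*. The median ratio was -0.04 over the members and 0.02 over all genes, and 39 members had a ratio within 0.32 of 0, which is 61.9% of the members and compares with 78.5% of all counted genes. Counting error is small for most of them: the interval of 17 members held equality, that of 20 lay above it and that of 26 below it. These intervals hold no spread between pools, and the same split over all counted genes was not made. The whole interval lay past 1.5-fold for 5 of the members called, *Wnt5a*, *Wnt7b*, *Wnt2*, *Lgr5* and *Sfrp4*.

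**Figure D2:**
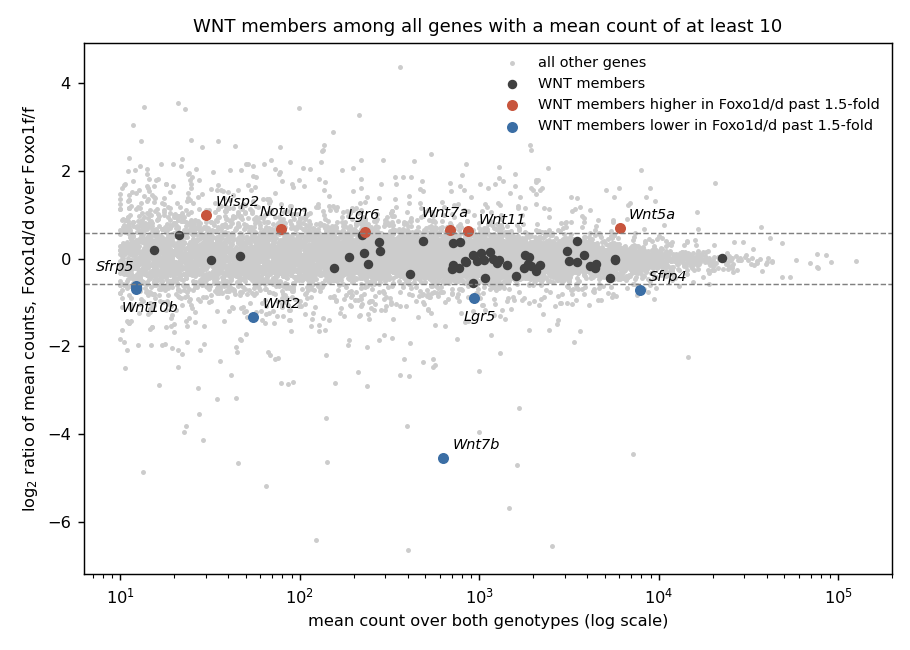
Log2 ratio against the mean count over both genotypes (log scale) for all counted genes (grey) and the 63 WNT members (black, or coloured where past 1.5-fold), with dashed lines at 1.5-fold. *Wnt7b* stands apart from the other members at a ratio of -4.55, and the other coloured points lie between -1.34 and 0.99.

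The promoters of 50 of the 75 members are in the RefSeq promoter set for GRCm38.p6, and their 250 bases before the transcription start were searched on both strands for the FOXO motif GTAAACA and the TCF/LEF motif CTTTGAT, which do not overlap each other. The FOXO motif was in none of the 60 windows of these members and in 3.17% of all 32851 promoter windows. At that share a set of 60 windows may hold none, so the absence cannot be told from it. The TCF/LEF motif was in 3 of the 60 windows, those of *Wnt11*, *Wnt5b* and *Sp5*, which are 6% of the 50 members. It was in 3.21% of all windows, and a count of 3 is too small to tell from that share. *Wnt11* is one of the higher ligands and *Sp5* is a widely used readout of β-catenin, so both are shown with the motif in capitals, 5′ to 3′ along the gene. The printed stretches leave out bases that lie within the gene's RefSeq extent or in an annotated exon, which removes 28 bases next to the start in *Wnt11* and none in *Sp5*. The letters are a match to the motif and no measurement of binding.

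*Wnt11*, chr7:98834862-98835083, plus strand: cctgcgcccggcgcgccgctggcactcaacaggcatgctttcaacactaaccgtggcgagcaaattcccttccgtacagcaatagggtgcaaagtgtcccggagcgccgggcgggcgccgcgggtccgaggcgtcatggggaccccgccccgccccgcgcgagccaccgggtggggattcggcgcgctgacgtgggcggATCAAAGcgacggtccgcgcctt

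*Sp5*, chr2:70474673-70474922, plus strand: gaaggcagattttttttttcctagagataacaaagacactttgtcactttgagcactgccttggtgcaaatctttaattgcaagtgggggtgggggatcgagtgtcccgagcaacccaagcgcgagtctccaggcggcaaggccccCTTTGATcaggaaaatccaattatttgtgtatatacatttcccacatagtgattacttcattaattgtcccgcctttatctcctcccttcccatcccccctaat

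In *Wnt11* the match is on the opposite strand and begins 51 bases before the start of the promoter window's transcript, which is 23 bases before the outermost RefSeq start of the gene. In *Sp5* it is on the gene's strand and begins 104 bases before the start by either measure. The *Wnt5b* match begins 71 bases before the start of a transcript that lies inside the gene, so that stretch is not printed. Of the other members past 1.5-fold, *Lgr6* is shown without the 98 bases that lie within its gene, and *Wnt2*, *Wnt7a*, *Wnt10b* and *Sfrp5* have windows that are not printed. None of these 5 genes' windows holds either motif, which says only that these letters are not in this window.

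*Lgr6*, chr1:135105375-135105526, minus strand: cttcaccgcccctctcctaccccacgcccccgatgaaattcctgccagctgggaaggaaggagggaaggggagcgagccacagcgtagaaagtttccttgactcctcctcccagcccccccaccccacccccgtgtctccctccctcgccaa

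*Wnt7b*, *Wnt5a*, *Lgr5*, *Sfrp4*, *Notum* and *Wisp2* are not among the 50.

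Among the 19 ligands, 13 were counted genes, with a median ratio of 0.16. Of these 13, 3 were higher and 3 lower, 23.1% each way, beside 5.43% and 3.51% of all counted genes. *Wnt7b* (chromosome 15, 85535437 to 85581821, minus strand) averaged 1208 counts per control library and 53.0 per *Foxo1d/d* library, or 3624 and 159 counts in all. It was 23.8-fold lower, with a counting interval of 20.3 to 27.9, and ranked 10 from the lowest ratio among 15696 genes. The summed CPM of the 12 epithelial markers, not scaled for length, was 1.21-fold higher over the same libraries. The part of that in the *Wnt7b* value was not tested. Of the 6 nearest flanking counted genes, 71.6 to 418 kb away, the ratios ranged from -0.39 to 0.13. The difference at *Wnt7b* was thus not shared by these neighbours, among them *Atxn10*, *Fbln1* and *Ppara*. The microRNA genes *Mirlet7c-2*, with low mean counts of 22.7 and 20.0, and *Mirlet7b*, with 20.0 and 23.0, are also among the 6. An antisense gene, *AU022754*, overlaps a *Wnt7b* exon by 198 bases and had mean counts of 6.00 and 4.67. The strand setting of the counting is not given in the sources used here, so reads on the overlap cannot be assigned, and their part in the *Wnt7b* value was not tested.

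*Wnt7a* (chromosome 6, 91363981 to 91411353, minus strand), the closest relative of *Wnt7b* and the ligand that patterns the female tract, differed the other way. It averaged 522 counts in controls against 859 in *Foxo1d/d*, which is 1.58-fold higher with an interval of 1.48 to 1.68. The 12 epithelial markers were also higher, with a median ratio of 0.35 and a summed CPM 1.21-fold higher. Their part in the *Wnt7a* value was not tested. Per length, *Wnt7b* stood at a level of 9.44 and *Wnt7a* at 6.30 in controls. In *Foxo1d/d* the order was turned, with *Wnt7b* at 0.397 and *Wnt7a* at 9.93, which is 25.0 times as much.

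*Wnt5a* (chromosome 14, 28504543 to 28527448, plus strand), the main ligand of β-catenin-independent signalling, was the most abundant ligand in both genotypes. It averaged 4517 counts in controls and 7623 in *Foxo1d/d*, 1.62-fold higher with an interval of 1.58 to 1.65. Its relative *Wnt5b* went from 256.7 to 300.3, a ratio of 0.16 that did not reach the threshold. The 12 markers of stroma, where *Wnt5a* is mainly made, had a median ratio of -0.05, and none of them passed 1.5-fold. The median was 0.35 for epithelium, 0.40 for leukocytes, -0.26 for smooth muscle and -0.21 for endothelium. The part of cell makeup in the *Wnt5a* value was not tested.

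*Wnt11* (chromosome 7, 98835084 to 98854747, plus strand), another ligand known for cell movement and polarity, had mean counts of 659 and 1062, 1.55-fold higher with an interval of 1.46 to 1.63. *Wnt2* (chromosome 6, 17985474 to 18032772, minus strand), a stromal ligand of the β-catenin branch in other organs, had mean counts of 78.3 and 31.7. It was 2.58-fold lower, with an interval of 2.03 to 3.27. *Wnt10b* (chromosome 15, 98770712 to 98778206, minus strand), known for holding back fat cell formation, stood near the count minimum at 15.0 and 9.33, so that its 1.68-fold lower value has an interval of 1.05 to 2.68.

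A pair of ligands lay just under the threshold. *Wnt16* went from 1078 counts to 764, a ratio of -0.56, and *Wnt4*, which is needed for decidualization, went from 175.7 to 268.0, a ratio of 0.55. *Wnt6*, *Wnt9a*, *Wnt2b* and *Wnt10a* had ratios of 0.37, -0.34, -0.13 and 0.20. The other 6 ligands were near the detection limit: *Wnt9b* had mean counts of 7.33 and 6.67, *Wnt8b* of 2.00 and 2.33 and *Wnt3* of 0.333 and 2.33, while *Wnt8a* had 0.333 in both. *Wnt1* and *Wnt3a* had 0 in *Foxo1f/f*, which allows up to 0.0383 CPM, and 0.333 in *Foxo1d/d*.

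**Figure D3:**
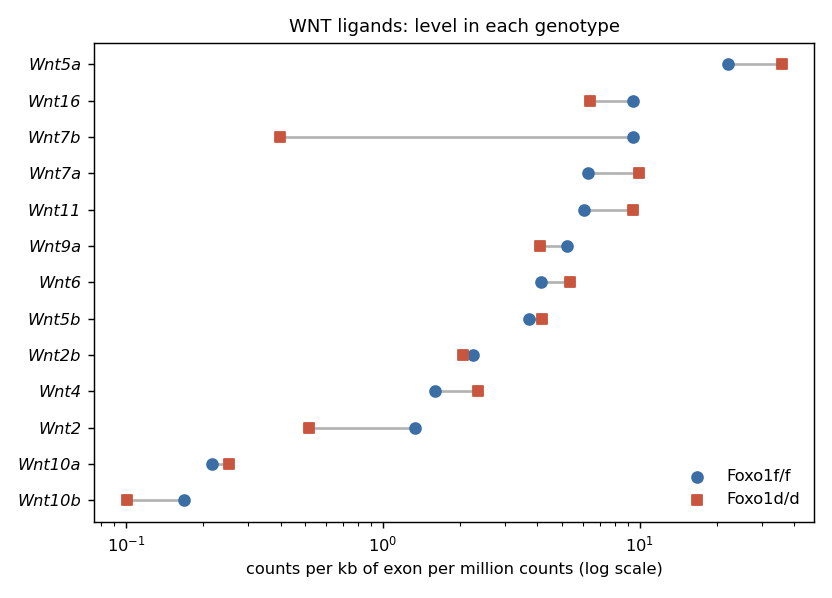
Level of the 13 counted WNT ligands, in CPM per kb of merged exon on a log scale, in *Foxo1f/f* (blue circles) and *Foxo1d/d* (red squares), where each point is 1 genotype mean and has no error bar because no single libraries were analysed. *Wnt7b* falls from among the 3 highest ligands to a level of 0.397, and *Wnt5a* is the highest in both genotypes.

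Added up per length, the ligands came to 72.1 in *Foxo1f/f* and 80.9 in *Foxo1d/d*, so the sum was 1.12 times as large. Without *Wnt7b* the sums were 62.6 and 80.5, and without *Wnt5a* they were 49.98 and 45.2. The makeup of the sum differed more than its size. *Wnt5a* was 30.7% of it in *Foxo1f/f* and 44.2% in *Foxo1d/d*, *Wnt7b* 13.1% and 0.491%, *Wnt7a* 8.74% and 12.3%, and *Wnt11* 8.45% and 11.6%. *Wnt16*, at 13.1% and 7.94%, was level with *Wnt7b* in *Foxo1f/f*.

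Ligands need the acyltransferase *Porcn* and the carrier *Wls* to leave the cell. *Wls* had mean counts of 5589 and 5786, a ratio of -0.01. *Porcn* went from 1224 to 939, which is 1.36-fold lower with an interval of 1.29 to 1.43 and did not reach the threshold.

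No Frizzled receptor passed 1.5-fold among the 9 that are counted genes, and their median ratio was -0.06. At the shares of all counted genes, 5.43% higher and 3.51% lower, a list of 9 may well hold none. The most abundant per length were *Fzd1*, at levels of 42.5 and 36.4, and *Fzd2*, at 29.6 and 33.6. *Fzd6*, which takes part in cell polarity, had the highest ratio, 0.41, with mean counts of 2918 and 4043, followed by *Fzd5* at 0.37. *Fzd7* had the lowest, -0.39, with mean counts of 1783 and 1422. *Fzd4*, *Fzd10*, *Fzd3* and *Fzd8* lay between -0.21 and 0.14, and *Fzd9* had mean counts of 9.67 and 7.67. The Frizzled levels summed to 124 in *Foxo1f/f* and 127 in *Foxo1d/d*.

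The co-receptors of the β-catenin branch, *Lrp5* and *Lrp6*, had ratios of -0.15 and -0.17. *Ryk* and *Ror2*, receptors that bind WNT5A, had ratios of -0.06 and 0.07, and *Ror1* had 0.03. All 5 therefore lay far inside the threshold. *Ryk* was the most abundant of them per length, at levels of 26.6 and 25.5, and *Lrp6* was next at 11.95 and 10.6.

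The LGR receptors, which bind R-spondins, split in direction. *Lgr5* (chromosome 10, 115450314 to 115587780, minus strand), a stem cell marker in several epithelia that is also a β-catenin target, averaged 1199 counts in controls and 674 in *Foxo1d/d*. It was 1.86-fold lower, with an interval of 1.76 to 1.96. *Lgr6* (chromosome 1, 134983300 to 135105374, minus strand) went from 179 to 285.3, 1.53-fold higher with an interval of 1.37 to 1.70. *Lgr4*, the most widely expressed of the 3, had mean counts of 1063 and 1233, a ratio of 0.15. Per length *Lgr5* was 4.47 times as abundant as *Lgr6* in *Foxo1f/f* and 1.58 times in *Foxo1d/d*, or 9.33 and 3.29 times with the longest transcript as length.

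The R-spondins themselves were near equality. *Rspo3* and *Rspo1* were the most abundant of this group per length, at levels of 23.2 and 20.0 and of 19.2 and 18.6, with ratios of -0.21 and -0.04. *Rspo2* had mean counts of 3.33 and 5, and *Rspo4* of 3.67 and 6.33. The ligases that R-spondins remove had ratios of 0.40 for *Rnf43* and -0.24 for *Znrf3*, both also known as β-catenin targets.

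Of the 9 roles, the antagonists had the largest drop in summed level, from 303 in *Foxo1f/f* to 240 in *Foxo1d/d*, or 0.791 of the control. Of the 10 that are counted genes, 1 was higher (10%) and 2 were lower (20%), beside 5.43% and 3.51% of all counted genes. A ratio under 0 was found for 8 of the 10, beside 37 of the 63 members and 7047 of all 15696 counted genes. The median of the 10 was -0.11. *Sfrp4* (chromosome 13, 19623175 to 19632825, plus strand), a secreted decoy for WNT ligands, was the most abundant in *Foxo1f/f*. It averaged 9603 counts in controls and 6116 in *Foxo1d/d*, 1.64-fold lower with an interval of 1.61 to 1.67. *Sfrp2* stayed closer, at 4562 and 4376, so that the order per length turned: *Sfrp4* was 1.08 times *Sfrp2* in *Foxo1f/f* and 0.720 times in *Foxo1d/d*. The 10 smooth muscle markers had a median ratio of -0.26 and a summed CPM 1.22-fold lower, and stroma markers a summed CPM of 0.995 of the control. Their part in the antagonist values was not tested.

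*Dkk3*, a divergent member of the Dickkopf family, went from 6050 counts to 4635, 1.36-fold lower, and *Sfrp1* from 2234 to 1918, 1.22-fold lower. *Dkk2*, *Apcdd1* and *Frzb* had ratios of -0.10, -0.03 and -0.02. *Notum* (chromosome 11, 120653788 to 120661193, minus strand), the secreted esterase that strips the lipid from WNT ligands, was higher, at 58.7 and 98.7, which is 1.61-fold with an interval of 1.34 to 1.94. Antisense genes overlap it, and 32.8% of its 32-base exon windows are shared with other annotated genes, so part of its count may be theirs. *Sfrp5* (chromosome 19, 42197971 to 42202252, minus strand) was lower at 14.7 and 9.67, with an interval of 0.995 to 2.52 that holds equality. *Dkkl1* had a ratio of 0.53 at mean counts of 16.7 and 25.7. *Dkk1*, the classic LRP antagonist, had mean counts of only 1.67 and 2.00, *Wif1* had 0.333 and 1.33, and *Dkk4* had 0 in both, which allows up to 0.0383 and 0.0367 CPM.

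**Figure D4:**
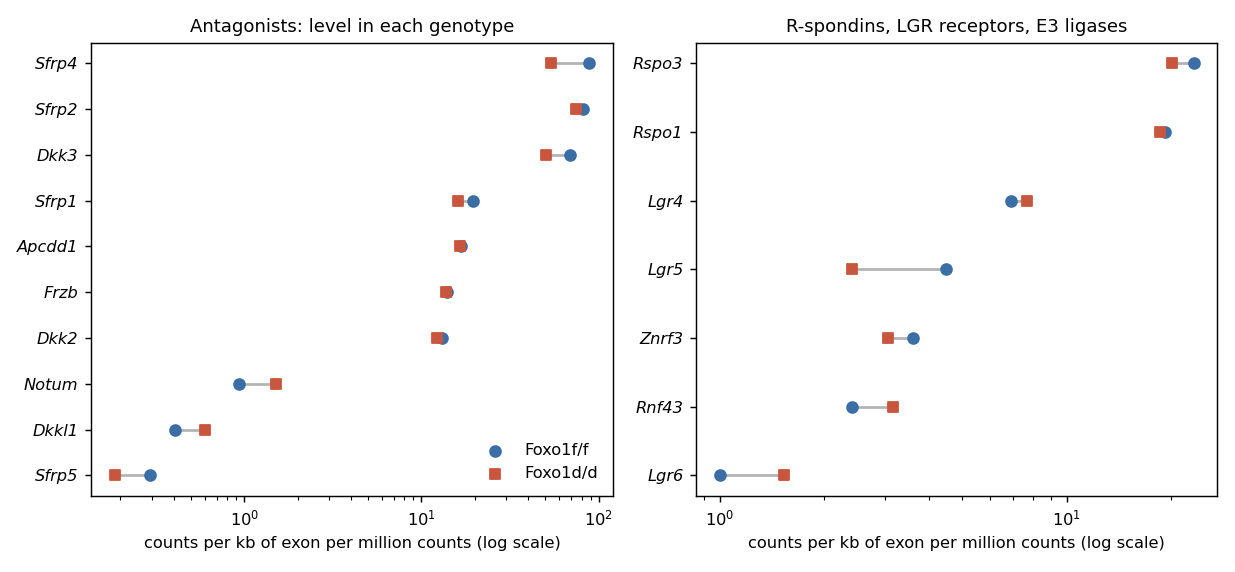
Level of the antagonists (left) and of R-spondins, LGR receptors and their ligases (right) that are counted genes, in CPM per kb of merged exon on log scales, in *Foxo1f/f* (blue circles) and *Foxo1d/d* (red squares), 1 genotype mean per point. *Sfrp4* and *Dkk3* move down among the abundant antagonists while *Notum* moves up at a low level, and *Lgr5* and *Lgr6* move toward each other.

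None of the 9 cytoplasmic transducers passed 1.5-fold, and their ratios ranged from -0.16 to 0.08. With 5.43% of all counted genes higher and 3.51% lower, a list this short may well hold none. *Ctnnb1*, which encodes β-catenin, had the highest count of all members, 21949 in controls and 23206 in *Foxo1d/d*. Its ratio was 0.02 and fell just below 0 when ratios were centred on the median gene. *Dvl1*, *Dvl2* and *Dvl3*, the adaptors below Frizzled, had ratios of -0.09, -0.04 and 0.04, and *Apc* and *Axin1* of the destruction complex 0.08 and 0.07. An exon of *Dvl2* overlaps *Acadvl* on the other strand by 377 bases, and *Acadvl* had mean counts of 3304 and 3542.

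*Axin2*, *Nkd1*, *Nkd2*, *Lef1* and *Sp5* are genes that β-catenin switches on as feedback or readout. *Axin2* had mean counts of 1909 and 1838, a ratio of -0.12 with a counting interval of -0.17 to -0.06. *Nkd1* and *Nkd2* had ratios of -0.15 and -0.16, *Lef1* had mean counts of 1059 and 1074 and a ratio of -0.04, and *Sp5* had 44.7 and 48.3 and a ratio of 0.05. These 5 readouts thus had ratios between -0.16 and 0.05, but other readouts lay outside that range. *Lgr5*, also a readout, was lower and *Notum*, also one, was higher. The targets *Rnf43* and *Znrf3* had ratios of 0.40 and -0.24, and the readout genes *Wisp1* and *Wisp2* of 0.35 and 0.99. The role of other readout genes, *Sp5* and the *Wisp* genes, had a median ratio of 0.20. Of its 4 genes 1 was higher (25%), beside 5.43% of all counted genes. The summed level of this role went from 6.246 in *Foxo1f/f* to 7.791 in *Foxo1d/d*, in proportion the largest rise of any role. *Wisp1*, which did not pass 1.5-fold, was 67.1% and 68.4% of that sum. The other TCF/LEF factors, *Tcf7*, *Tcf7l1* and *Tcf7l2*, had ratios of 0.14, -0.14 and -0.07.

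The *Wisp* genes encode secreted matrix proteins first described as induced by WNT1. *Wisp2* (chromosome 2, 163820752 to 163833146, plus strand) went from 19.3 counts to 41.0, 2.03-fold higher with an interval of 1.49 to 2.77. *Wisp1* was far more abundant and closer to equality, at 609.7 and 808.3, 1.27-fold higher. *Wisp3* had 31.7 and 32.3, but 482 of its exon bases overlap *Tube1* on the other strand, which had 173.3 and 166.7. *Wisp2* is also made by fat tissue, of whose 9 counted markers 7 were higher in *Foxo1d/d*, with a median ratio of 1.82, and the part of that in its value was not tested. The summed CPM of all 10 fat markers, not scaled for length, was 1.54-fold higher. *Lipe*, at a ratio of 0.18, and *Pck1*, at -0.72, were among those with the highest counts.

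**Figure D5:**
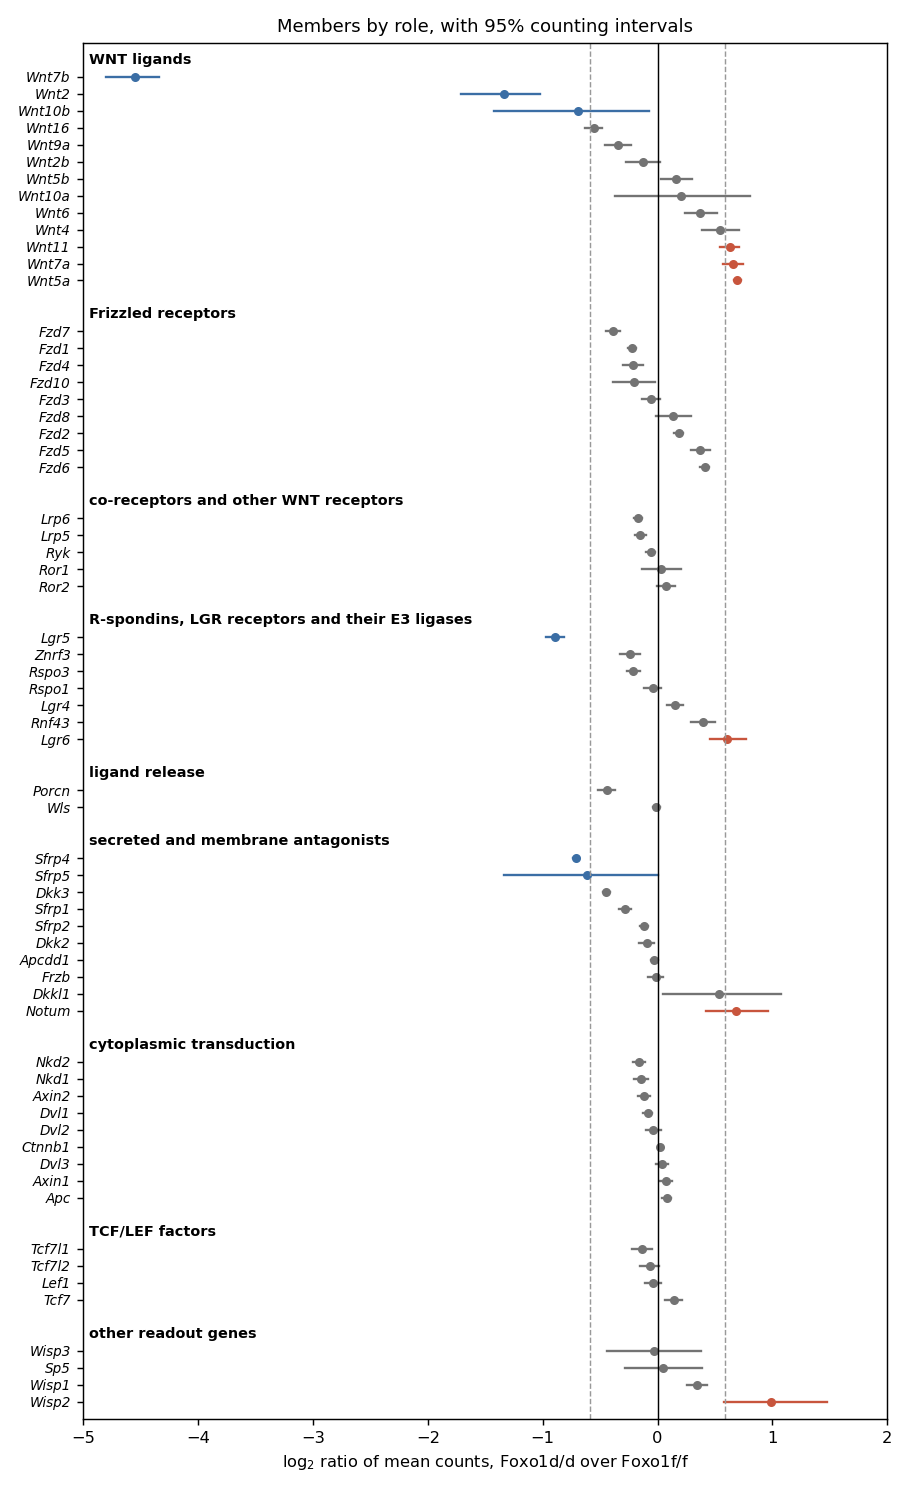
Log2 ratio of the mean counts, *Foxo1d/d* over *Foxo1f/f*, of the 63 counted members, grouped by role, with 95% counting intervals as lines and dashed lines at 1.5-fold (red, higher past 1.5-fold; blue, lower past 1.5-fold; grey, neither). Points past the dashed lines are found among ligands, the LGR receptors, antagonists and *Wisp2*, and the receptors and transducers lie between the lines.

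Pathway genes outside the name pattern were read from 5 lists, in which 114 were counted genes, with 2 higher (1.75%) and 3 lower (2.63%). Of all counted genes, 5.43% were higher and 3.51% lower, and at those shares a short list may hold few or none. No gene of the destruction complex and its kinases passed 1.5-fold among 19, none of the nuclear cofactors of β-catenin among 18, and none of the further antagonists and co-receptors among 14. In the last list *Sostdc1*, a secreted LRP6 antagonist, came nearest, with mean counts of 32 and 22 and a ratio of -0.58, and it passed 1.5-fold with a pseudocount of 0.1, with centring on the median gene and with upper-quartile scaling. *Kremen1*, the receptor that DKK proteins use against LRP6, had mean counts of 2978 and 2148 and a ratio of -0.53. In the polarity and calcium branch 1 of 30 genes passed, *Celsr2*, a cadherin of planar cell polarity, which went from 983 to 1599 and was 1.56-fold higher.

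Of 33 further genes known as β-catenin targets, 1 was higher (3.03%) and 3 were lower (9.09%), with a median ratio of 0.03. Of all counted genes, 5.43% were higher and 3.51% lower. *Mmp7*, a protease made by epithelia, went from 274.3 counts to 10.7, 26.8-fold lower, and *Fgf9* from 293.3 to 77.0, 3.97-fold lower. *Gjb6*, a connexin, went from 46.7 to 12, 4.06-fold lower, while *Fgf18* went from 12.3 to 53.7, 4.17-fold higher. Most genes of the list moved little: *Ccnd1* had a ratio of 0.16, *Myc* of -0.14, *Cd44* of 0.18 and *Sox9* of -0.30.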

How the data were processed

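Whole uteri of pseudopregnancy day 4.5 were sequenced as 3 libraries per genotype, each from 2 pooled mice. The authors used STAR to map the reads, Picard to drop duplicates, HTSeq to count them on RefSeq genes and edgeR to compare the genotypes. Versions are not given in the sources used here. The study's methods name mm10 and the submitters' processing notes name mm9, while the deposited table holds no coordinates, so positions here are those of RefSeq on GRCm38.p6. The authors deposited, per gene, the mean raw count of each genotype, which was used here, and their average log2 CPM and their own fold change, p-value and FDR, which were not used. The planned tests needed counts of single libraries, so none was run.

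Mean counts were scaled to genotype totals of 26125014 and 27257963 with a pseudocount of 1. Intervals are 95% Wilson intervals of the summed counts, 78375043 and 81773890, and cover counting error only. Exon lengths came from GENCODE M21. Exons of 15 members overlap another annotated gene. Besides those named above, these include *Wnt5a* (233 bases), *Wnt11* (364), *Fzd5* (619), *Lef1* (1208) and *Ctnnb1* (475), all with a gene on the other strand. The part of such overlaps in the counts was not tested. Steps ran in Python 3.11.15 with numpy, pandas and scipy. The ratio and interval were also run on simulated counts with counting error only. Those counts had no spread between pools, so that run says nothing about it. Members and lists were chosen with earlier results of these data known. Genes named are the counted members past 1.5-fold, the 2 most abundant per length of each role, members of known uterine or readout function, the pathway genes past 1.5-fold and *Foxo1*; others are named for values near them, after their values were seen. Alternatives were pseudocounts of 0.1 and 5, centring on the median gene, upper-quartile scaling, no count filter or one of 50, fold thresholds of 2 and below 1.5, the longest transcript as length, and promoters extended by 50 bases after the start. Gland markers *Cxcl15* and *Spink1* and the pathway symbols *Tblr1*, *Prickle4* and *Adgra2* did not match the table.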

Additional observations from a re-analysis of the deposited data

How the results depend on the processing

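No paired analysis was possible because the table gives means per genotype and no single libraries, and for the same reason no library could be left out. Pseudocounts of 0.1 and 5, centring on the median gene and upper-quartile scaling turned no member past 1.5-fold to the other direction. A threshold of 2-fold left 0 members higher and 2 lower (*Wnt7b* and *Wnt2*) and 1 other pathway gene higher, where 1.99% of all counted genes were higher and 1.4% lower. The lower of the other thresholds, 0.32 on the log2 scale, gave 13 members higher and 11 lower and 8 and 9 pathway genes, where 12.5% of all counted genes were higher and 9% lower. A mean count of at least 50 left 1 pathway gene higher, and no filter gave 5 lower, in both cases through the genes that the filter keeps or drops. With the first of these settings 3.81% of all genes were higher, and with the second 4.85% were lower. The lower pathway genes went from 3 to 4, with *Sostdc1* added, under a pseudocount of 0.1 and both other scalings. *Wnt10b* and *Sfrp5* lost their calls with a pseudocount of 5, and these and *Wisp2* fell under the count minimum of 50. Without a filter *Wnt3*, *Rspo4* and *Wif1* joined the higher members on means of at most 6.33 counts. With the longest transcript as length, *Wnt5a* was still the highest ligand, at 29.2% and 44.0% of the sum, *Wnt7b* was 16.1% and 0.631%, and 15 of 63 members took another place within their role in *Foxo1f/f* and 20 in *Foxo1d/d*. With 50 bases after the start included, 1 member, *Tcf7*, held the FOXO motif and the 3 members with the TCF/LEF motif were the same. The spread between pools was not used here, so a ratio near 1.5-fold, such as that of *Lgr6*, *Wnt11*, *Wnt16* or *Wnt4*, has no firm side of the threshold. Members with mean counts under 20, such as *Wnt10b* and *Sfrp5*, are limited by depth.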
